A study of Mus musculus with 479 samples.

Results

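The genes described here are 10 genes of the NRF2 response outside its heme and glutathione transferase branches, taken by symbol from the 24475 genes listed. They are Nfe2l2, which encodes the transcription factor NRF2, and Gclc, Gclm, Slc7a11, Gsr, Txnrd1, Srxn1, Nqo1, Osgin1 and G6pdx. The RNA came from 4 tissues (heart, kidney, liver, lung) of wild-type (WT) and heterozygous (Het) mice that carry 1 altered allele of Dchs1 (Dchs1+/-) or of Fat4 (Fat4+/-), the genes of a pair of large cadherins. The mice were made with VelociGene technology on a C57BL/6NTac background, and each line has its own wild-type littermates as controls, with no further allele or agent named. The 479 libraries form 16 groups of line, tissue and genotype with 30 libraries each, except 29 of Dchs1 Het liver. All 10 are protein-coding genes in the RefSeq annotation of build GRCm38.p6, which paired each symbol with the NCBI gene identifier that the files use. It places Nfe2l2 (gene 18024) at chr2:75675513-75704663, Nqo1 (gene 18104) at chr8:107388225-107403205, Gclc (gene 14629) at chr9:77754535-77794489, Gclm (gene 14630) at chr3:122245487-122267215 and Gsr (gene 14782) at chr8:33653238-33698162. The others are Txnrd1 (gene 50493) at chr10:82833951-82897724, Srxn1 (gene 76650) at chr2:152105524-152111376, Slc7a11 (gene 26570) at chr3:50364936-50499087, Osgin1 (gene 71839) at chr8:119425882-119446257 and G6pdx (gene 14381) at chrX:74409483-74428880. Age, sex and litter are not in the labels used here, nor is which part of either gene was altered. Whether the libraries of a group are separate mice is not in the labels, and p-values then measure only the spread between libraries. Whether the 4 tissues share mice is not in the labels either.

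NRF2 is held at low levels by KEAP1, which directs it to degradation. When reactive compounds modify KEAP1, NRF2 builds up, pairs with small MAF proteins and binds antioxidant response elements near its target genes. The targets supply the cell with glutathione and thioredoxin, the main thiol systems that reduce peroxides and repair oxidised proteins, and with the NADPH that both systems use. Liver, kidney and lung are known for high turnover of glutathione.

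The core of the antioxidant response element, TGACNNNGC in which N is any base, was searched for on both strands of RefSeq promoter windows (build GRCm38.p6) that run from 250 bases before to 50 bases after each start. It was found in 5 of the 8 genes of the set with a window, in 5 of their 10 windows, against 12.4% of all 32851 windows. The window of Srxn1 held its match after the start. Gclc and Gsr had no window. The 4 matches that lie wholly before the start are printed below with 8 bases on each side. Each is read 5′ to 3′ on the strand that carries the core, and the capitals mark the core.
Nfe2l2: agcccaccTGACTCCGCcatgcccc
Gclm: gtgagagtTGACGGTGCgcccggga
Txnrd1: tgtcagaaTGACAAAGCaaaaatcc
G6pdx: gtgtgcttTGACTGAGCtgacccgc
The printed stretch of Nfe2l2 is chr2:75704887-75704911 (minus strand), with the core at positions -240 to -232 from the start. That of Gclm is chr3:122245415-122245439 (minus strand), with the core at -134 to -126. The stretch of Txnrd1, from the second of its 3 windows, is chr10:82859106-82859130 (minus strand), with the core at -92 to -84. That of G6pdx is chrX:74428921-74428945 (plus strand), with the core at -57 to -49. A match of letters is a description only, and whether it bears on the level of a gene was not tested. The windows of Nqo1, Slc7a11 and Osgin1 held no match.

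Totals ran from 10720364 to 32282525 estimated reads per library, with a median of 18978025. The altered gene was at 42.2% to 46.6% of WT in the 4 tissues of the Dchs1 line (Dchs1) and at 47.8% to 51.7% in those of the Fat4 line (Fat4). The defining markers of each labelled tissue were present, with all 4 markers of its own tissue tested in every comparison. Between 0 and 9 libraries of a comparison stood apart from the others in rank correlation, with the highest number in Dchs1 lung (6 WT and 3 Het). Gclm and Slc7a11 lie on chromosome 3 with Fat4, 83.2 Mb and 11.4 Mb from it.

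In wild-type mice the genes differed widely in level and in tissue. Levels between genes and tissues are given as TPM, which is scaled to transcript length. Nfe2l2 was highest in lung, with a median of 125.0 TPM in the Dchs1 line (range 54.9 to 153) against 35.4 in kidney, 31.8 in liver and 27.9 in heart. Lung did not overlap kidney in either line, and the other 3 tissues overlapped each other.

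**Figure D1:**
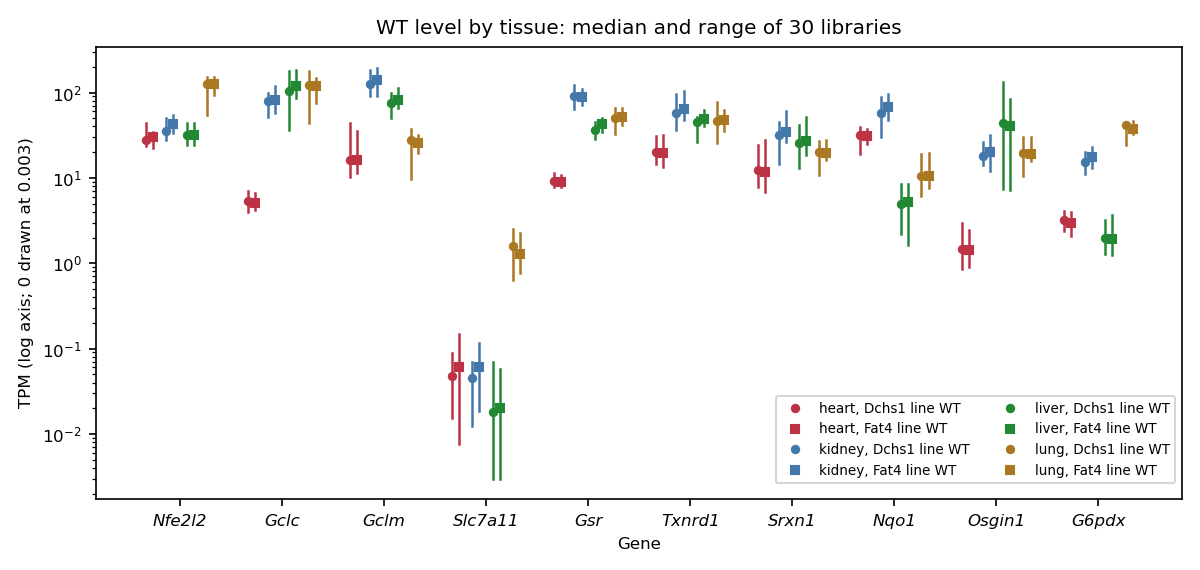
Level of each gene in wild-type mice by tissue, in TPM on a log axis; each symbol is the median and each bar the range of 30 libraries, with circles for the Dchs1 line and squares for the Fat4 line. Slc7a11 is near 0 outside the lung, and the heart is the lowest tissue for Gclc, Gsr and Osgin1 in both lines.

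The 2 subunits of glutamate-cysteine ligase, the first enzyme of glutathione synthesis, were expressed in different proportions across tissues. Gclc, the catalytic subunit, had a WT median of 122 TPM in lung, 104 in liver, 80.6 in kidney and 5.34 in heart of the Dchs1 line. Gclm, the modifier subunit that raises the activity of the enzyme, had 126 in kidney, 75.6 in liver, 27.7 in lung and 16.2 in heart. The ratio of Gclm to Gclc per library (both in TPM) therefore had WT medians in the Dchs1 line of 3.12 (heart), 1.73 (kidney), 0.736 (liver) and 0.220 (lung). The Fat4 line had 3.06, 1.67, 0.707 and 0.216. The WT ranges of this ratio in lung (0.137 to 0.319) and in liver (0.548 to 1.38) of the Dchs1 line did not overlap, nor did lung and kidney.

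Slc7a11, the cystine carrier subunit that brings in the sulphur amino acid for glutathione, was near its floor outside the lung. Its WT median in lung was 1.61 TPM (Dchs1 line) and 1.29 (Fat4 line), against 0.0607 or less in heart, kidney and liver of both lines. In liver it was listed at 0 reads in 7 WT and 7 Het libraries of the Dchs1 line and in 4 WT and 6 Het libraries of the Fat4 line. It passed the filter on low counts in lung only, so 9 of the 10 genes were tested in heart, kidney and liver.

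Gsr, glutathione reductase, was highest in kidney (WT median 91.9 TPM in the Dchs1 line) and lowest in heart (9.20). The thioredoxin branch had the same highest and lowest tissues, but lung stood above liver for Gsr and below it for Srxn1. Txnrd1, the cytosolic thioredoxin reductase, had 56.9 TPM in kidney and 20.04 in heart, and Srxn1, sulfiredoxin, which repairs over-oxidised peroxiredoxins, had 31.5 in kidney and 12.5 in heart of the same line. G6pdx, which makes NADPH in the pentose phosphate pathway, had 41.2 TPM in lung, 15.5 in kidney, 3.21 in heart and 1.97 in liver. Nqo1, a quinone reductase, was highest in kidney (58.1) and lowest in liver (4.94). Osgin1, an oxidative stress induced growth inhibitor, was highest in liver (43.9, range 7.40 to 131) and lowest in heart (1.48).

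The order of tissues depended on how libraries were scaled. Each gene has 3 neighbouring pairs of tissues in its TPM order. With TMM scaling across tissues in edgeR, 21 of the 30 pairs of the Dchs1 line passed in that order and 9 in the opposite direction, and in the Fat4 line 19 passed in order, 8 in the opposite direction and 3 did not pass. Pairs that turned were, for example, Nqo1 in lung over liver and Gclm in lung over heart, where TMM put lung lower. With limma on log2(TPM + 1), 25 of 30 pairs passed in each line. Genes with all 3 neighbours distinct numbered 2 in each line by edgeR and 6 in each by limma on TPM. Slc7a11 was among the edgeR genes of both lines, although it was near its floor outside the lung. Its Dchs1 WT means were 0.0512 TPM (heart), 0.0449 (kidney) and 0.0197 (liver). By limma on TPM its heart over kidney pair did not pass (adjusted p = 0.868 for Dchs1, 0.915 for Fat4). Its kidney over liver pair did not pass either (0.476 and 0.054). The edgeR counts of pairs in order include these floor values. The scales lay about 1 log2 unit or more apart where lung was one of the tissues: Nfe2l2 in lung over kidney of the Dchs1 line was 0.55 by TMM and 1.62 on log2(TPM + 1), and Nqo1 in lung over liver of the Fat4 line was -0.46 and 0.93. After TMM the median of all genes differed between neighbouring tissues by up to 0.18 on the log2 scale.

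Het was then compared with WT within each line and tissue, which is the comparison the labels set up. Levels below are TMM-scaled CPM (read counts relative to library size), comparable within 1 comparison. A gene was called higher or lower at an edgeR quasi-likelihood adjusted p under 0.05. Over the 8 comparisons 74 values were tested, of which 29 were higher and 6 lower in Het. Slc7a11 was the gene with no call, in the 2 comparisons that tested it. Library numbers in the labels are the only stand-in for a batch: sorted numbers of a line and tissue fall into runs, and values in the longest run and in the libraries outside it are given for the calls that moved most between them. Surrogate variables are patterns shared by many genes that were estimated from the data and added to the model as an alternative, by a two-step and by an iteratively weighted method.

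In Dchs1 heart 7 of 9 genes were higher and 1 was lower (of all genes tested, 50.2% were called, 26.1% higher and 24.1% lower). In Dchs1 kidney 7 of 9 were higher and none was lower (47.2% called, 23.4% higher and 23.8% lower). In Dchs1 liver 3 of 9 were higher and 4 lower (49.8% called, 24.3% higher and 25.4% lower). In Dchs1 lung 3 of 10 were higher and none was lower (20% called, 9.6% higher and 10.4% lower). In the first 3 of these comparisons about every second gene was called, so the counts of the set are to be read against that share. The median log2 fold change of the tested genes of the set in heart was 0.25, in kidney 0.26, in liver -0.14 and in lung 0.09, against -0.00 to 0.01 over all genes.

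In Fat4 kidney 8 of 9 genes were higher and none was lower, against 17.1% of all genes called, 9.21% higher and 7.87% lower. In Fat4 heart 1 of 9 was higher (1.6% called, 0.969% higher and 0.628% lower), with 4 of 9 at an unadjusted p under 0.05. In Fat4 liver 1 of 9 was lower (7.15% called, 3.64% higher and 3.51% lower), with 2 of 9 at an unadjusted p under 0.05. In Fat4 lung 0 of 10 were called by edgeR, limma or DESeq2, against 0.136% of all genes (0.11% higher and 0.0259% lower), and 0 had an unadjusted p under 0.05. The median log2 fold change of the set in Fat4 kidney was 0.25, against -0.00 over all genes. The Fat4 kidney count of 8 went to 0 with two-step surrogate variables (all genes from 2393 to 321) and to 7 with iteratively weighted ones. It was 6 in the longest run of library numbers and 0 outside it.

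Two-step surrogate variables also lowered the counts of the Dchs1 line, from 8 to 2 in heart, from 7 to 4 in kidney and from 7 to 3 in liver, while iteratively weighted ones gave 8, 8 and 7. In Dchs1 heart the two-step values of Nfe2l2 (-0.027), Srxn1 (-0.057) and Osgin1 (-0.10) turned, and Nqo1 (-0.054), Gclc (0.15) and Txnrd1 (0.094) lost their calls. In Dchs1 liver Gclc (-0.061), Gclm (-0.023), Nfe2l2 (-0.0778) and Srxn1 (0.14) lost theirs, and Osgin1 was called in the opposite direction (0.92). In Fat4 liver the 1 call, Gclc, was lost (-0.12).

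**Figure D2:**
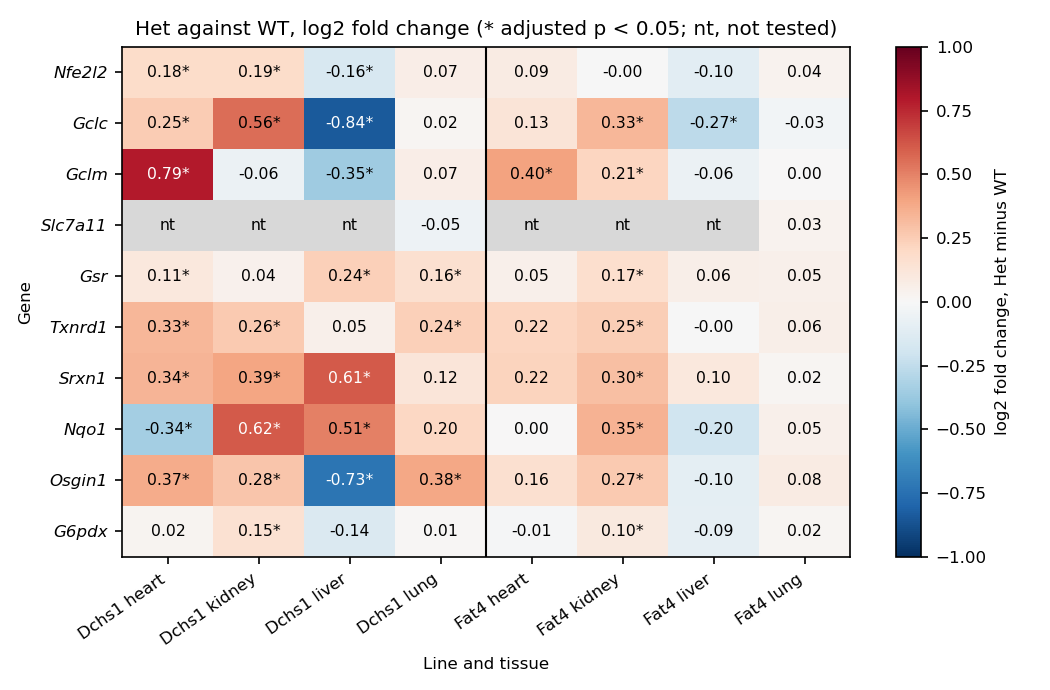
Log2 fold change of Het against WT for each gene (rows) in each line and tissue (columns), from red (higher in Het) to blue (lower); an asterisk marks an adjusted p under 0.05 and grey cells were not tested. Kidney is red for most genes in both lines, and Dchs1 liver holds the strongest blue cells, Gclc and Osgin1, beside red cells for Srxn1 and Nqo1.

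Nfe2l2 itself moved little. In Dchs1 kidney its level was 62.5 CPM in the median WT library (range 50.7 to 82.1) and 71.3 in the median Het library (58.4 to 87.1). The log2 fold change was 0.19 (SE 0.038, adjusted p = 4.66e-05), and 28 of 30 Het libraries lay above the WT median although the ranges overlapped. It was also higher in Dchs1 heart, by 0.18 (SE 0.053, adjusted p = 0.00346), with medians of 49.1 and 56.8 CPM. In Dchs1 liver it was lower, by -0.16 (SE 0.063, adjusted p = 0.0328). That liver value was -0.23 in the longest run of library numbers and turned to 0.10 in the 12 libraries outside it (adjusted p = 0.438). In Fat4 kidney, where 8 of the other genes were higher, Nfe2l2 had medians of 69.4 and 67.8 CPM and a log2 fold change of -0.00 (SE 0.033).

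The subunits of glutamate-cysteine ligase passed the test in heart, kidney and liver and in no lung comparison. In Dchs1 heart Gclm had a median of 25.04 CPM in WT (range 15.4 to 65.0) and 47.3 in Het (32.5 to 57.1). All 30 Het libraries lay above the WT median, 23 WT libraries lay below the lowest Het library, and 1 WT library lay above all Het libraries. The fold change was 1.73, or 0.79 on the log2 scale (SE 0.092, adjusted p = 1.27e-10), and it was 0.79 in the longest run of library numbers and 0.78 outside it. Gclc in the same hearts rose from a median of 13.4 to 16.3 CPM, by 0.25 (SE 0.050, adjusted p = 2.84e-05), with 0.28 in the longest run and 0.14 outside it. The ratio of Gclm to Gclc (TPM) was 3.12 in the median WT and 4.78 in the median Het heart.

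Fat4 heart showed the same gene at a smaller size. Gclm there had a median of 23.2 CPM in WT (17.3 to 55.2) and 33.6 in Het (18.2 to 53.7), with 27 of 30 Het libraries above the WT median and wide overlap. The log2 fold change was 0.40 (SE 0.096, adjusted p = 0.0242), and the difference between the lines, 0.39 (SE 0.13), passed the test (adjusted p = 0.0245). Gclc in Fat4 heart had medians of 12.95 and 14.5 CPM and did not pass (0.13, adjusted p = 0.0809). With iteratively weighted surrogate variables the call of Gclm in Fat4 heart was lost (0.17, adjusted p = 0.0609), and outside the longest run its value was 0.22.

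In kidney it was the catalytic subunit that rose in the Dchs1 line. Gclc had a median of 184 CPM in WT (122 to 240) and 271 in Het (176 to 454), and 23 Het libraries lay above the highest WT library. The log2 fold change was 0.56 (SE 0.067, adjusted p = 4.08e-10). Gclm had medians of 177 and 174 CPM in the same kidneys and did not pass (-0.06, SE 0.048, adjusted p = 0.301). The Gclm to Gclc ratio (TPM) was 1.73 in the median WT and 1.12 in the median Het kidney. In Fat4 kidney both subunits rose, Gclc from 177 to 219 CPM in the median library (0.33, SE 0.067, adjusted p = 0.000486) and Gclm from 175 to 206 (0.21, SE 0.046, adjusted p = 0.00113). The lines differed for Gclc by 0.23 (Dchs1 minus Fat4, adjusted p = 0.0477) and for Gclm by -0.26 (adjusted p = 0.00088).

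In Dchs1 liver both subunits fell. Gclc had a median of 211 CPM in WT (75.6 to 339) and 122 in Het (74.0 to 190), where all 29 Het libraries were under the median of WT and 18 WT libraries above the highest Het library. The log2 fold change was -0.84 (SE 0.097, adjusted p = 1.55e-10). Gclm had 94.0 CPM in WT (65.9 to 119) and 74.6 in Het (58.1 to 89.1), again with 29 of 29 under the median of WT (-0.35, SE 0.048, adjusted p = 1.15e-08). Outside the longest run of library numbers, with 7 WT and 5 Het libraries, the values were -0.49 for Gclc and -0.12 for Gclm, neither called. In Fat4 liver Gclc fell from 232 to 188 CPM in the median library (-0.27, SE 0.073, adjusted p = 0.0159), and Gclm had medians of 100.1 and 99.3 CPM (-0.06, adjusted p = 0.351). Both subunits differed between the lines in liver, Gclc by -0.56 (adjusted p = 0.000297) and Gclm by -0.28 (adjusted p = 0.00021).

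**Figure D3:**
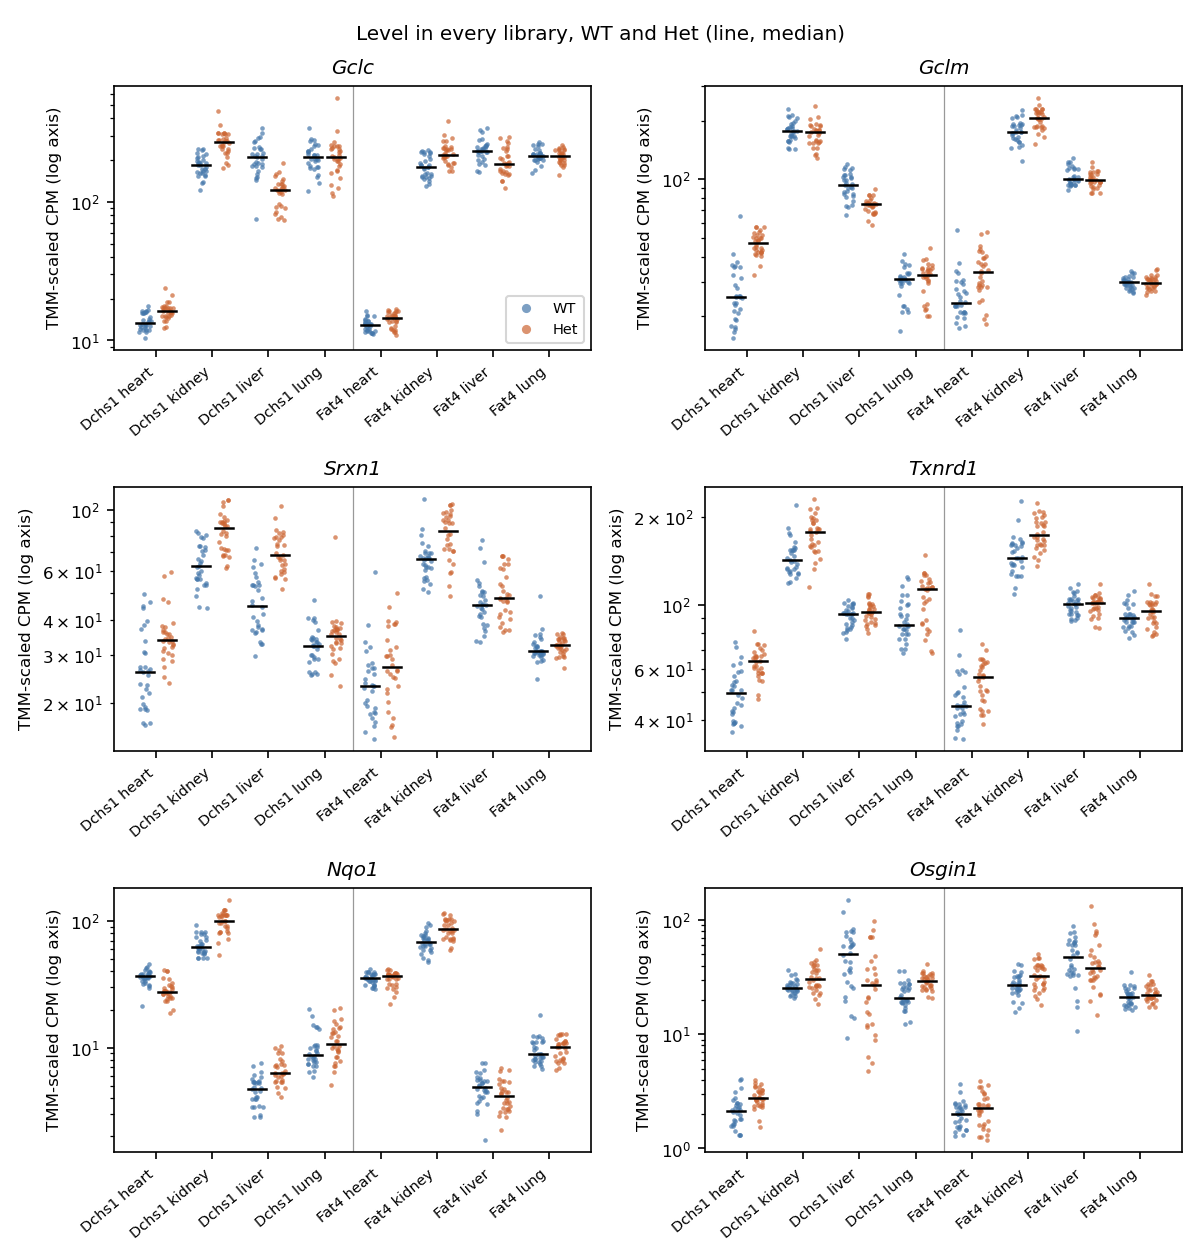
TMM-scaled CPM of 6 genes in every library of each comparison, WT in blue and Het in orange, on log axes that do not start at 0; the black bar is the median. Gclc in Dchs1 liver is lower in Het, Gclm in Dchs1 heart is higher in Het, with 23 of 30 WT libraries below the lowest Het library, and the lung columns of the Fat4 line overlap throughout.

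Slc7a11 in lung had medians of 7.83 CPM in WT and 7.39 in Het of the Dchs1 line (-0.05, SE 0.14) and of 6.81 and 6.93 in the Fat4 line (0.03, SE 0.095). Neither passed.

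Gsr, which returns oxidised glutathione to its reduced form, was higher in Het in 4 comparisons and lower in none. In Dchs1 liver it had a median of 59.8 CPM in WT (47.8 to 75.1) and 68.4 in Het (61.5 to 101), with all 29 Het libraries above the WT median. The rise was 0.24 (SE 0.043, adjusted p = 5.55e-06) and stood both inside and outside the longest run of library numbers (0.18 and 0.43). In the same livers Gclc and Gclm fell. Gsr was also higher in Dchs1 lung (0.16, SE 0.050, adjusted p = 0.0129), Dchs1 heart (0.11, adjusted p = 0.012) and Fat4 kidney (0.17, SE 0.032, adjusted p = 0.000249). Outside the longest run Gsr was at 0.064 in Dchs1 lung and 0.099 in Fat4 kidney. In Dchs1 kidney it had medians of 176 and 181 CPM (0.04, adjusted p = 0.265), and the lines differed in kidney by -0.12 (adjusted p = 0.0267).

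G6pdx was higher in kidney of both lines, from 28.9 to 32.2 CPM in the median library of the Dchs1 line (0.15, SE 0.034, adjusted p = 0.000212) and from 31.4 to 34.2 in the Fat4 line (0.10, SE 0.035, adjusted p = 0.046). The Fat4 call stood close to the threshold and was lost in 7 of 10 alternatives. In heart, liver and lung its log2 fold changes ran from -0.14 to 0.02 and none passed.

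The calls of the thioredoxin branch shared a direction. Srxn1 and Txnrd1 were each higher in Het in 4 comparisons and lower in none. In Dchs1 liver Srxn1 had a median of 44.9 CPM in WT (29.7 to 72.5) and 68.4 in Het (51.8 to 103). All 29 Het libraries lay above the WT median, and 19 WT libraries lay below the lowest Het library. The log2 fold change was 0.61 (SE 0.076, adjusted p = 1.31e-09), with 0.64 inside and 0.50 outside the longest run of library numbers. In Fat4 liver its medians were 45.3 and 47.9 CPM (0.10, adjusted p = 0.47), and the difference between the lines, 0.52 (SE 0.11), passed (adjusted p = 0.000112).

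In kidney Srxn1 rose in both lines, from 62.5 to 85.5 CPM in the median library of the Dchs1 line (0.39, SE 0.062, adjusted p = 3.13e-07) and from 66.4 to 83.6 in the Fat4 line (0.30, SE 0.066, adjusted p = 0.00121). The Fat4 value was 0.36 in the longest run and 0.048 outside it. The lines did not pass the test of a difference for Srxn1 in kidney (0.10, SE 0.092). In Dchs1 heart its median went from 26.02 CPM (16.7 to 49.5) to 33.9 (23.6 to 59.4), by 0.34 (SE 0.10, adjusted p = 0.00325), a value that turned to -0.057 with two-step surrogate variables and was 0.31 with iteratively weighted ones. The hearts of both genotypes overlapped over most of that range.

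Txnrd1 rose by 0.33 in Dchs1 heart (medians 49.8 and 63.8 CPM, SE 0.059, adjusted p = 3.71e-06), by 0.26 in Dchs1 kidney (142 and 178 CPM, adjusted p = 6.06e-05), by 0.24 in Dchs1 lung (85.2 and 113 CPM, adjusted p = 0.00687) and by 0.25 in Fat4 kidney (145 and 173 CPM, adjusted p = 0.000776). Its liver medians were 92.8 and 94.5 CPM (Dchs1) and 100.3 and 101.6 CPM (Fat4), and neither comparison passed. Outside the longest run the Dchs1 lung value was 0.14. In Fat4 heart its medians were 44.8 and 56.2 CPM (0.22, adjusted p = 0.0763), and it passed once the 4 outlying libraries were left out (0.25, adjusted p = 0.0288).

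Nqo1 and Osgin1 had calls in both directions, as Gclc, Gclm and Nfe2l2 did. In Dchs1 kidney Nqo1 had a median of 62.2 CPM in WT (50.8 to 92.8) and 99.8 in Het (54.1 to 146), and 19 Het libraries lay above the highest WT library (0.62, SE 0.068, adjusted p = 2.25e-11). In Fat4 kidney it rose from 68.1 to 85.9 CPM in the median library (0.35, SE 0.064, adjusted p = 0.000205), with 0.22 outside the longest run. In Dchs1 liver, at a low level, it rose from 4.74 to 6.31 CPM (0.51, SE 0.093, adjusted p = 7.37e-06).

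In Dchs1 heart Nqo1 fell instead, from a median of 36.5 CPM in WT (21.2 to 46.1) to 27.7 in Het (18.8 to 41.0), and 27 of 30 Het libraries were under the median of WT (-0.34, SE 0.059, adjusted p = 2.22e-06). These are the hearts in which Gclm, Txnrd1, Srxn1 and Osgin1 rose. In Fat4 heart Nqo1 had medians of 35.2 and 37.0 CPM (0.00, SE 0.045). The lines differed in heart by -0.35 (SE 0.076, adjusted p = 0.000238), in kidney by 0.28 (adjusted p = 0.0157) and in liver by 0.72 (SE 0.14, adjusted p = 3.13e-05).

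Osgin1 rose in Dchs1 heart (2.11 to 2.76 CPM in the median library, 0.37, adjusted p = 0.000974), Dchs1 kidney (25.2 to 30.5 CPM, 0.28, adjusted p = 0.00188), Dchs1 lung (20.9 to 29.6 CPM, 0.38, adjusted p = 0.000187) and Fat4 kidney (27.1 to 32.1 CPM, 0.27, adjusted p = 0.0298). The Fat4 kidney call was kept in 5 of 10 alternatives. It was lost in the longest run (0.25, edgeR adjusted p = 0.0611) and with two-step surrogate variables (0.081). In Dchs1 lung 29 of 30 Het libraries lay above the WT median. The rise in the longest run and outside it was 0.43 and 0.12 in Dchs1 heart and 0.43 and 0.22 in Dchs1 lung, and the heart value turned to -0.10 with two-step surrogate variables. In Dchs1 liver it was lower, with 50.2 CPM in the median WT library (9.23 to 149.96) and 27.1 in the median Het library (4.81 to 97.9), by -0.73 with a wide SE of 0.25 (adjusted p = 0.0141). That fall was -0.96 in the longest run of library numbers and 0.03 outside it, and it turned to 0.92 with surrogate variables of the two-step method.

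The difference between Het and WT was also tested for a dependence on tissue. In the Dchs1 line it passed for 9 of 10 genes, Slc7a11 being the exception (52.2% of all genes called), and in the Fat4 line for Nqo1, Gclc, Gclm and Txnrd1 (7.13% called). Slc7a11 entered these fits through its lung libraries and was near its floor in the other tissues. The test could therefore hardly pass for it, and its result says nothing about a dependence on tissue. A dependence on line passed in heart for 2 of 9 genes (25.5% of all genes called), in kidney for 5 of 9 (33.5%), in liver for 5 of 9 (23.6%) and in lung for 0 of 10 (5%). The kidney count was 4 with DESeq2 size factors, with no filter and with the number run as a covariate. Of the kidney calls, Gclc stood closest to the threshold (edgeR interaction term, adjusted p = 0.0477). In lung, edgeR gave 2 genes, Txnrd1 and Osgin1, an unadjusted p under 0.05 for the difference between lines.

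Of the 35 called values, 35 kept their direction in the longest run alone and 32 were called there. Outside the longest run, with 5 to 7 libraries of a genotype, 32 of 34 kept their direction and 6 were called. Fat4 liver had no Het library outside the longest run, and Fat4 lung formed a single run. Those 6 were Gclm in Dchs1 heart, Nfe2l2, Nqo1 and Srxn1 in Dchs1 kidney, and Srxn1 and Gsr in Dchs1 liver.

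Markers of other cell types moved in the same comparisons, and their counts too stand beside the shares of all genes called given above. In Dchs1 kidney all 4 proximal tubule markers were lower, and their summed level had a median of 21817 CPM in WT (16021 to 25485) and 12956 in Het (9510 to 17720). In the same kidneys all 4 T and NK cell markers tested (4.05 and 2.77 CPM) and both B cell markers tested (2.67 and 1.59 CPM) were lower, and of the 4 markers of kidney itself 1 was higher and 2 lower. In Fat4 kidney 0 of 4 proximal tubule markers were called by edgeR, with sums of 21896 and 22585 CPM, and 4 of 5 endothelial markers (380 and 347 CPM) and 3 of the 4 markers of kidney itself (3384 and 2990 CPM) were lower. In Dchs1 liver 3 of 4 pericentral hepatocyte markers were lower and 1 higher (9090 and 6897 CPM), and Cidec, the 1 adipocyte marker tested, was higher (2.39). The summed adipocyte list had 6.80 and 79.5 CPM there, and Lep was at 0 in every Dchs1 liver. Of the 4 adipocyte markers only Cidec passed the filter on low counts there, so the call rests on 1 gene. In Dchs1 heart 4 of 5 erythroid markers were lower (1283 and 997 CPM). Of 6 fibroblast markers there, 4 were lower and 1 higher (1021 and 935 CPM). In Dchs1 lung 5 of 6 T and NK cell markers (41.0 and 23.3 CPM), 3 of 4 B cell markers (105 and 63.6 CPM) and 4 of 6 fibroblast markers (1484 and 1259 CPM) were lower and 2 of 5 neutrophil markers were higher (175 and 259 CPM). The part of these cells in the results was not tested, and in bulk tissue fewer cells of a type and less RNA per cell cannot be told apart.

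The other genes of the pathway were read from 6 lists of regulators, NADPH supply, glutathione, thioredoxin and peroxiredoxin genes, heme and transferase targets, and targets of ATF4, a stress factor that also drives cystine uptake. Together they gave 32 higher and 7 lower of 66 tested in Dchs1 heart (all genes 26.1% higher and 24.1% lower), 25 and 19 of 68 in Dchs1 kidney (23.4% and 23.8%), 25 and 22 of 69 in Dchs1 liver (24.3% and 25.4%) and 13 and 4 of 70 in Dchs1 lung (9.6% and 10.4%). In the Fat4 line they gave 24 and 2 of 68 in kidney (9.21% and 7.87%), 1 and 7 of 67 in liver (3.64% and 3.51%), 1 and 0 of 66 in heart (0.969% and 0.628%), and 0 of 70 in lung (0.11% and 0.0259%), where edgeR gave 5 an unadjusted p under 0.05. The counts of each list below are to be read against the same shares.

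Among the regulators in Dchs1 heart 6 of 11 were higher and 2 lower. Sqstm1, whose protein p62 sequesters KEAP1, rose by 0.58 (414 to 620 CPM on average, 30 of 30 Het libraries above the WT median, adjusted p = 8.94e-13). The small MAF partners also rose there, Mafk by 0.59, Maff by 0.90 and Mafg by 0.24. Sqstm1 was higher in all 4 tissues of the Dchs1 line (0.12 in kidney, 0.23 in liver, 0.20 in lung) and in Fat4 kidney (0.19). Maff rose in Dchs1 liver by 1.16 and in Dchs1 lung by 0.63. Bach1, a repressor at the same elements, was higher in kidney of both lines (0.20 and 0.13). Nfe2l1 was higher in Dchs1 kidney (0.084) and lower in Dchs1 liver (-0.25) and Fat4 kidney (-0.095). Btrc was lower in Dchs1 kidney (-0.088). The 11 regulators gave 3 higher and 2 lower in Dchs1 kidney and 3 and 3 in Dchs1 liver. They gave 3 and 0 in Dchs1 lung and 2 and 1 in Fat4 kidney.

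The heme, transferase and other targets gave 10 higher and 0 lower of 17 in Dchs1 heart, 13 and 1 of 18 in Dchs1 kidney and 9 and 1 of 18 in Fat4 kidney. In Dchs1 liver they gave 5 higher and 7 lower of 20, and in Fat4 liver 0 higher and 5 lower of 18. Hmox1, heme oxygenase, rose by 2.58 in Dchs1 heart (27.6 to 165 CPM on average) and by 0.78 in Fat4 kidney. Cbr3, a carbonyl reductase, rose by 1.69 and Abcc4, an export pump, by 0.88 in Dchs1 kidney. Gsta3, a glutathione transferase, rose by 0.56 in Dchs1 heart and 0.33 in Dchs1 kidney and fell by 1.15 in Dchs1 liver (adjusted p = 2.34e-13), the tissue in which Gclc fell. In Fat4 liver Gsta2 was the transferase with the smallest p, at -0.65 (adjusted p = 9.01e-05).

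The other glutathione genes gave 6 higher and 1 lower of 11 in Dchs1 heart and 6 and 6 of 12 in Dchs1 kidney. They gave 6 and 2 of 11 in Dchs1 liver, 4 and 1 of 13 in Dchs1 lung and 5 and 0 of 12 in Fat4 kidney. Among them Gss, the second enzyme of synthesis, rose by 0.37 in Dchs1 heart and fell by 0.34 in Dchs1 kidney, where Gclc rose. Slc3a2, the heavy chain that pairs with Slc7a11 and other amino acid carriers, rose in all 4 tissues of the Dchs1 line (0.26 in heart, 0.51 in kidney, 0.36 in liver, 0.19 in lung) and in Fat4 kidney (0.23), and was lower in Fat4 liver (-0.13). Ggct and Ggt1, enzymes of glutathione breakdown, were lower in Dchs1 kidney (-0.94 and -0.47), and Ggt1 was higher in Dchs1 lung (0.34). Chac2, another glutathione-degrading enzyme, was lower in Dchs1 heart (-0.48) and Dchs1 liver (-0.81). Gpx3, the secreted glutathione peroxidase, rose by 0.86 in Dchs1 heart and 1.09 in Dchs1 liver.

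The thioredoxin and peroxiredoxin genes outside the set did not follow Txnrd1 and Srxn1 in Dchs1 kidney. In Dchs1 kidney 0 of 12 were higher and 5 lower, among them the peroxiredoxins Prdx5 (-0.37) and Prdx1 (-0.16), Txn1, the cytosolic thioredoxin itself (-0.26), and Txn2, the mitochondrial one (-0.20). In Fat4 kidney 2 of 12 were higher, Prdx3 (0.10) and Prdx6 (0.08), and 0 lower. In Dchs1 heart 5 of 12 were higher and 1 lower, with Txnip at 0.28, Prdx6 at 0.16, Txnrd3 at 0.15 and Prdx1 at -0.16. In Dchs1 lung 1 of 12 was higher, Prdx6 (0.38), and 0 lower. In Dchs1 liver 4 were higher and 6 lower, with Prdx6 at -0.47, Txnrd2 at -0.39, Txnrd3 at -0.53 and Prdx3 at 0.31.

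Of the NADPH genes, Pgd, the second dehydrogenase of the pentose phosphate pathway, was higher in all 4 tissues of the Dchs1 line (0.12 in heart, 0.30 in kidney, 0.25 in liver, 0.15 in lung) and in Fat4 kidney (0.20). Malic enzyme Me1 was lower in Dchs1 heart (-0.20) and Dchs1 kidney (-0.47) and higher in Fat4 kidney (0.14). Idh1 was higher in Dchs1 heart (0.27) and lower in Dchs1 kidney (-0.17) and Dchs1 liver (-0.50). Taldo1 was lower in Dchs1 kidney (-0.30) and Dchs1 liver (-0.18), and Tkt was lower in Dchs1 liver (-0.18). The 6 NADPH genes gave 2 higher and 1 lower in Dchs1 heart, 1 and 3 in Dchs1 kidney and 2 and 3 in Dchs1 liver. They gave 1 and 0 in Dchs1 lung and 2 and 0 in Fat4 kidney.

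The ATF4 targets gave 5 higher and 2 lower of 11 in Dchs1 heart, with Atf3 at 0.85, and 6 higher and 1 lower of 11 in Dchs1 liver, with Ddit3 at 0.57, Trib3 at 0.52 and Sesn2 at 0.49. In Dchs1 kidney they gave 2 higher and 3 lower of 11, near the 47.2% of all genes called there, with Psat1, an enzyme of serine synthesis, at 0.81. In Fat4 kidney 4 were higher, Psat1 (0.47), Mthfd2 (0.47), Asns (0.43) and Shmt2 (0.11). Shmt2 was lower in Dchs1 kidney (-0.36) and Dchs1 liver (-0.24). In Dchs1 lung the list gave 1 higher and 3 lower of 11. There Atf3 rose (0.31), and Phgdh (-0.48), Shmt2 (-0.18) and Mthfd2 (-0.21) were lower.

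The genes of the set were also compared library by library within groups, over the values of log2(CPM + 1). For 3 pairs in 16 groups, 48 relations, Pearson and Spearman coefficients were tested with 100000 permutations, two-sided, adjusted over the 48, and computed again without the 2 libraries farthest from the median of the first gene. Gclc and Gclm, the subunits of 1 enzyme, correlated in 12 of 16 groups (13 by Spearman), with r from 0.157 to 0.864 and a median of 0.67, and in 14 groups without the 2 farthest libraries. Txnrd1 and Srxn1 correlated in 15 of 16 groups (16 by Spearman), with r from 0.387 to 0.932 and a median of 0.649. In the longest runs of library numbers alone these counts were 11 and 15.

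Nfe2l2 and its textbook target Nqo1 correlated in 1 of 16 groups. That was Dchs1 WT heart, with r = -0.607, and it rests on the 2 farthest libraries, without which r was -0.03. Its Spearman rho was -0.273 (permutation, adjusted p = 0.184). By Spearman the pair passed in 1 group too, Fat4 Het heart (rho = -0.417, permutation, adjusted p = 0.0358; r = -0.289). On the log2(TPM + 1) scale the pair passed in 6 of 16 groups. On that scale r was above 0 in 11 of the 16 groups. It ran from -0.614 in Dchs1 WT heart to 0.652 in Dchs1 WT kidney, with -0.489 in Fat4 Het lung.

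**Figure D4:**
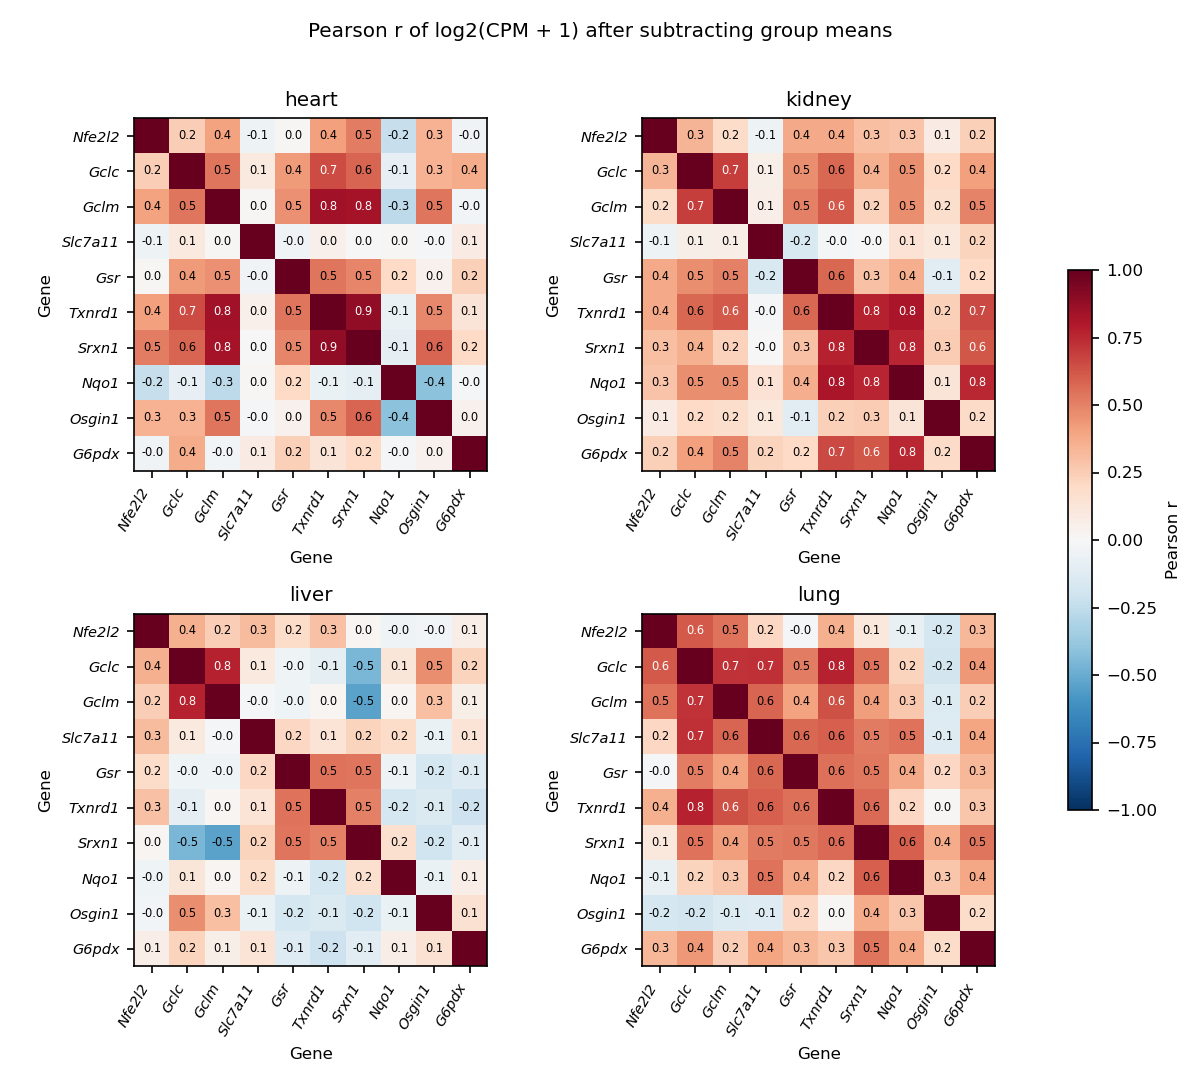
Pearson correlations between the 10 genes over the libraries of each tissue, on log2(CPM + 1) after the mean of each group was subtracted (120 libraries a tissue, 119 in liver), from red (together) to blue (opposite). Gclm and Srxn1 run together in heart and opposite in liver, and Nqo1 joins Txnrd1, Srxn1 and G6pdx in kidney.

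With the mean of each group subtracted, the libraries of both lines and genotypes were pooled by tissue as a description; these share library depth, and any unrecorded condition of the animal. In heart, Gclm, Txnrd1 and Srxn1 moved together (r = 0.837 for Gclm and Txnrd1, 0.829 for Gclm and Srxn1, 0.883 for Txnrd1 and Srxn1, n = 120), and Nqo1 ran against Osgin1 (-0.408) and Gclm (-0.263). In kidney, Nqo1 moved with Txnrd1 (0.814), Srxn1 (0.761) and G6pdx (0.752). In lung, Gclc moved with Txnrd1 (0.767), Slc7a11 (0.734) and Gclm (0.72). In liver, Gclc and Gclm moved together (0.769, n = 119), but Srxn1 ran against both (-0.455 and -0.532) while it moved with Txnrd1 (0.505). The median over all 45 pairs was 0.39 in lung, 0.293 in kidney, 0.196 in heart and 0.067 in liver. These pairs include Slc7a11, which was near its floor outside the lung. Over the 36 pairs without Slc7a11 the median was 0.363 in lung, 0.372 in kidney, 0.346 in heart and 0.022 in liver.

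The genes most like the set were ranked by the correlation of their residuals with the mean residual of the 10 genes, over 479 libraries and 14382 genes. They were Cat, catalase (r = 0.585), Pgd (0.579), Ugdh, UDP-glucose dehydrogenase (0.564), Mgst1, a microsomal glutathione transferase (0.524), Hmox1 (0.5), Cldn2, a claudin of tight junctions (0.485), Dhx32 (0.484) and Hnrnpf (0.471). The likeness differed by tissue. For Hmox1 it was 0.882 in heart and -0.006 in liver, and for Cldn2 it was 0.68 in liver and 0.016 in heart.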

How the data were processed

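The authors deposited, per line, estimated counts and TPM per gene and library. Per the labels' protocols, poly(A) RNA was made into strand-specific libraries and sequenced single-end. Per the submitters' processing notes, bcl2fastq 2.17, FastQC and the build GRCm38 were used. For the aligner, the quantifier and the use of strand: not given in the sources used here. All columns matched a labelled library, and 0 were left out. Of the estimated counts the authors deposited, 15.17% (Dchs1) and 15.33% (Fat4) were not whole. No pair of libraries in a group agreed within sampling noise (lowest chi-square per gene 3.48).

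Estimated counts were rounded and tested with edgeR 4.0.16 (R 4.3.3): TMM, filterByExpr (minimum count 10, total 15), quasi-likelihood F test, Benjamini-Hochberg over all genes tested, threshold 0.05. A standard error is the absolute log2 fold change divided by the root of F. A new run starts where sorted library numbers differ by 3 or more. Alternatives used DESeq2 1.42.0, limma 3.58.1 on log2(TPM + 1) and log2(TPM + 0.1), and sva 3.50.0. Scripts were tested on simulated counts.

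The genes and lists were chosen with earlier results of these data known. All 10 genes are named, with up to 4 genes of each pathway list with the smallest p per comparison among those called, and the 8 genes most like the set (mean of at least 1 CPM in each line).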

Additional observations from a re-analysis of the deposited data

Results flagged for a closer look

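The Het against WT difference differed between the lines (Dchs1 minus Fat4, log2 scale, edgeR interaction term) for 12 of the values tested. In heart these were Nqo1 (-0.35) and Gclm (0.39). In kidney they were Nfe2l2 (0.20), Nqo1 (0.28), Gclc (0.23), Gclm (-0.26) and Gsr (-0.12), a count that was 4 in each alternative. In liver they were Nqo1 (0.72), Gclc (-0.56), Gclm (-0.28), Gsr (0.19) and Srxn1 (0.52).

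The difference also depended on tissue within a line. In the Dchs1 line the adjusted p was 9.39e-23 for Gclc, 2.52e-22 for Gclm, 3.28e-13 for Nqo1, 1.16e-06 for Osgin1, 0.000306 for Nfe2l2, 0.000647 for Srxn1, 0.00761 for G6pdx, 0.00934 for Gsr and 0.015 for Txnrd1. In the Fat4 line it was 2.62e-08 for Gclc, 1.7e-05 for Gclm, 0.000762 for Nqo1 and 0.0162 for Txnrd1.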

How the results depend on the processing

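Of 748 recomputed fold changes of the 10 genes, 675 kept direction and call, 61 lost the call, 6 gained one and 6 turned. DESeq2 and its size factors in edgeR changed none of 74 calls each, and the number run as a covariate none of 64. Two-step surrogate variables turned Nfe2l2 (-0.027), Srxn1 (-0.057) and Osgin1 (-0.10) in Dchs1 heart and Osgin1 in Dchs1 liver (0.92); these variables held 40.7% to 65% of the variance of genotype in the Dchs1 line. Outside the longest run, Nfe2l2 (0.10) and Osgin1 (0.033) turned in Dchs1 liver, with fewer libraries.

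Genes of the set called (main count first) outside the longest run: Dchs1 heart 8 and 1, Dchs1 kidney 7 and 3, Dchs1 liver 7 and 2, Dchs1 lung 3 and 0, Fat4 heart 1 and 0, Fat4 kidney 8 and 0. All genes called there: 6676 and 1067, 6671 and 1511, 6232 and 1987, 3018 and 6, 211 and 2, 2393 and 2. With two-step surrogate variables the set gave 2 in Dchs1 heart, 4 in Dchs1 kidney, 3 in Dchs1 liver, 0 in Fat4 kidney and 0 in Fat4 liver (main count 1), and all genes 1908, 2467, 1303, 321 and, in Fat4 liver, 1432 (main 892), in Fat4 lung 99 (main 21). Iteratively weighted ones, added after the data were seen, gave 0 of the set in Fat4 heart, and 7294 genes in Dchs1 lung, 1417 in Fat4 kidney, 1926 in Fat4 liver and 62 in Fat4 lung. Limma on TPM (pseudocounts 1 and 0.1) gave 1 of the set in Dchs1 lung, and 129 and 122 genes in Fat4 heart, 1430 and 1428 in Fat4 kidney and 10 in Fat4 lung.

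The number run as a covariate gave 4711 genes in Dchs1 lung, 346 in Fat4 heart and 1 gene of the set with a line difference in lung (main 0); the longest run alone gave 4623 and 117. No filter gave 95 genes in Fat4 heart, DESeq2 61 in Fat4 lung. Without outlying libraries Fat4 heart had 2 of the set and Fat4 lung 9 genes. Limma on TPM gave 6 genes with distinct tissues in each line (main 2, Slc7a11 with its floor values among them). Nfe2l2 and Nqo1 correlated in 6 groups on log2(TPM + 1), with r of both signs over all groups, and in 2 in the longest runs (main 1). The cause of these changes was not tested. No paired analysis was possible because the labels give the groups no shared replicate numbers. Slc7a11 outside lung was too low in level to be tested at these depths.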

Other observations

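In the WT hearts of both lines 1 library stood above the others in several genes of the set, chosen here after its values were seen. In Dchs1 WT heart it had 65.0 CPM of Gclm, against 41.4 in the next library, ranked first of 30 for Nfe2l2 and Txnrd1 and second for Srxn1 and Osgin1, and ranked 30 of 30, the lowest, for Nqo1. In Fat4 WT heart such a library had 55.2 CPM of Gclm, against 37.3 in the next, ranked first for Nfe2l2, Txnrd1, Srxn1 and Osgin1, and ranked 29 of 30 for Nqo1. The Het libraries with the highest Gclm ranked 4 of 30 for Nqo1 in Dchs1 heart and 24 of 30 in Fat4 heart. Such libraries were not particular to WT hearts. The Dchs1 Het lung library with the highest Gclm was highest for 6 genes of the set, Gclm included, and among the 3 highest for 8. Those of Dchs1 WT kidney and of Fat4 WT kidney were each highest for 4 and among the 3 highest for 7.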
